A study of Mus musculus with 6 samples.

Results

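The genes described here are Trp53, which encodes the transcription factor p53, and 9 of its direct targets, Mdm2, Ccng1, Perp, Trp53inp1, Sesn1, Sesn2, Zmat3, Phlda3 and Aen. They were taken by symbol from the deposited count table, and all 10 were among its 24062 symbols. Bulk RNA-seq was done on plaque from the aortic arch of mice, in 6 libraries. The tested mice received ABT263 (navitoclax), which blocks the anti-apoptotic proteins BCL-xL, BCL-2 and BCL-w and is used to kill senescent cells, and the others received vehicle, with 3 libraries in each group. Every mouse was a C57BL/6 animal without the low-density lipoprotein receptor and ate the fat-rich chow TD88137 over 12 weeks, followed by 3 weeks of low-fat chow. Daily intraperitoneal doses of 100 mg/kg ABT263 were given in week 1 of the low-fat diet, and the labels do not say for how many days. The labels give neither age nor sex, and they do not state that each library came from a separate animal, so the p-values reflect how far these libraries vary, in part perhaps for technical reasons.

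The p53 protein is held low by the ubiquitin ligase Mdm2 and is stabilised when DNA damage or other stress activates kinases such as Atm and Chek2. It then binds response elements near its target genes and raises their transcription, which can halt the cell cycle, start repair or lead to apoptosis. Stabilisation occurs mainly at the protein, so the Trp53 mRNA level is a poor gauge of p53 activity, and the target mRNAs are read instead. In senescent cells p53 helps to hold the growth arrest.

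Of the 10 genes, 1 stood out between the groups. Perp, which encodes a membrane protein of desmosomes that is also a p53 effector in apoptosis, was higher in each ABT263 library than in each vehicle library, by 2.54-fold in the fitted means (95% interval 1.53 to 4.23). Groups lay apart on the higher side for 5.68% of all genes. Perp did not pass the threshold over all genes by edgeR or by limma-voom. It passed by DESeq2, which called 0.427% of all genes on the higher side. For the 9 other genes the interval of the log2 fold change included 0 and lay within 1 on either side. Trp53 itself, its inhibitor Mdm2 and the sestrins Sesn1 and Sesn2 were on the lower side in the ABT263 libraries, and Ccng1 and Phlda3 on the higher side, none past the threshold. Over the 10 genes 5 fold changes were positive and 5 negative, and their median on the log2 scale was 0.0090, against 0.00080 over all 15222 genes tested.

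Total counts ran from 62930547 to 91688075 in the ABT263 libraries and from 67236568 to 110452098 in the vehicle libraries. Levels are CPM, counts scaled to a common library size, here corrected by TMM. The quasi-likelihood test of edgeR called 0 of the 15222 genes at an adjusted p of 0.05, and 1276 genes had an unadjusted p below 0.05. DESeq2 called 144 genes and limma-voom 0. Macrophage markers, summed over 10 genes, gave 7684 to 14621 CPM in the ABT263 libraries and 14766 to 23154 CPM in the vehicle libraries, and contractile smooth muscle markers gave 2500 to 16420 CPM and 2732 to 3764 CPM, so cell types of plaque were present. Summed T cell and B cell markers were also lower in every ABT263 library than in every vehicle library. Neutrophil markers summed to 46.8 to 121.3 CPM with ABT263 and 121.5 to 279 CPM with vehicle, so those groups nearly touched. ABT263 replicate 2 stood apart by its adipocyte markers, which summed to 3074 CPM against at most 4.95 CPM in the other libraries, and by its mesothelial markers, at 641 CPM against at most 35.1 CPM. Its markers of proliferating cells summed to 74.2 CPM, against at least 152 CPM in the other libraries. ABT263 replicate 3 stood apart by its striated muscle markers, at 40.4 CPM against at most 10.7 CPM. Vehicle replicate 2 stood apart by Rn45s, the ribosomal RNA precursor, at 1.74% of counts, and by its endothelial markers, at 571 CPM against at least 1775 CPM elsewhere. Rn45s took 0.30 to 0.33% of counts in the ABT263 libraries and 0.54 to 1.74% in the vehicle libraries, and its part in the values below was not tested. In bulk tissue, fewer cells of a type and less RNA per cell cannot be told apart.

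Several of these genes carry p53-like sequence close to an annotated start site. RefSeq promoter windows of GRCm38.p6, each 300 bases, were matched for 7 of the 10 symbols. Perp, Trp53inp1 and Zmat3 were not matched. The p53 decamer, the 10-base unit of which a response element holds a pair, was searched by exact match to its consensus, which reads the same on either strand. It occurred in the windows of 5 of the 7 matched genes, against 9.55% of all genes with a window, and in 6 of their 9 windows, against 8.36% of all 32851 windows. The genes were picked as p53 and its direct targets, so this contrast is not independent of the choice of genes. The stretches are shown as the places in these windows that match the letters p53 is known to bind. That of Sesn1 lies by a RefSeq start inside the gene, whose annotated span runs from 41809935 to 41908424. Outside Ccng1 each line marks a single decamer. A second decamer beside it was searched for only without a spacer and with at most 2 mismatches over the pair. Capitals mark the decamer, or for Ccng1 a pair of decamers, and each line reads 5′ to 3′ on the strand of the gene.
Trp53 (chr11:69580274-69580303, plus strand): acccacggaaGGACTTGCCCttacttgtta
Mdm2 (chr10:117710925-117710954, minus strand): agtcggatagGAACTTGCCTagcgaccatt
Ccng1 (chr11:40755457-40755486, minus strand): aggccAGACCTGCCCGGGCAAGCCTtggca
Sesn1 (chr10:41887256-41887285, plus strand): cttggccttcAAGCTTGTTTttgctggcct
Aen (chr7:78895927-78895956, plus strand): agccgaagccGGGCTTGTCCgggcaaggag
A pair of decamers with no spacer and at most 2 mismatches to the consensus occurred in the window of 1 matched gene, Ccng1, with 1 mismatch, and in 0.326% of all windows. That search was added after the first had been seen. No decamer by this rule was found in the windows of Sesn2 and Phlda3, which says only that these letters are not in those windows. Sequence outside the windows, such as most of the introns of Mdm2, was not searched. A printed stretch therefore need not be the response element of its gene. A match is a description of the sequence and does not show that p53 was bound.

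Trp53 (chromosome 11, 69580359 to 69591873, mm10) was expressed in all libraries. It stood at 61.8, 44.3 and 47.7 CPM in ABT263 replicates 1 to 3, against 50.4, 69.7 and 52.1 CPM in vehicle replicates 1 to 3. The groups overlapped, with the highest level in vehicle replicate 2 and the lowest in ABT263 replicate 2. Its log2 fold change was -0.16 (SE 0.21, 95% interval -0.67 to 0.35, edgeR adjusted p = 0.890). Without vehicle replicate 2 it was 0.0013.

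The regulators of p53 among its targets form its feedback loop. Mdm2 (chromosome 10, 117688875 to 117710758) is the ligase that marks p53 for degradation. It stood at 91.4, 47.0 and 75.4 CPM in the ABT263 libraries, against 94.9, 83.7 and 77.1 CPM in the vehicle libraries. ABT263 replicate 2 was lowest, and ABT263 replicate 1 lay inside the vehicle range. The log2 fold change was -0.26 (SE 0.27, interval -0.89 to 0.38, edgeR adjusted p = 0.847), and without ABT263 replicate 2 it was -0.028.

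Ccng1 (chromosome 11, 40748552 to 40755311) encodes cyclin G1, which brings a phosphatase to Mdm2. Its levels were 107, 117 and 129 CPM in the ABT263 libraries, against 122, 83.9 and 101 CPM in the vehicle libraries. Vehicle replicate 2, the library with the most Trp53 RNA, had the least Ccng1, and the groups overlapped. The log2 fold change was 0.20 (SE 0.20, interval -0.28 to 0.68, edgeR adjusted p = 0.842).

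**Figure D1:**
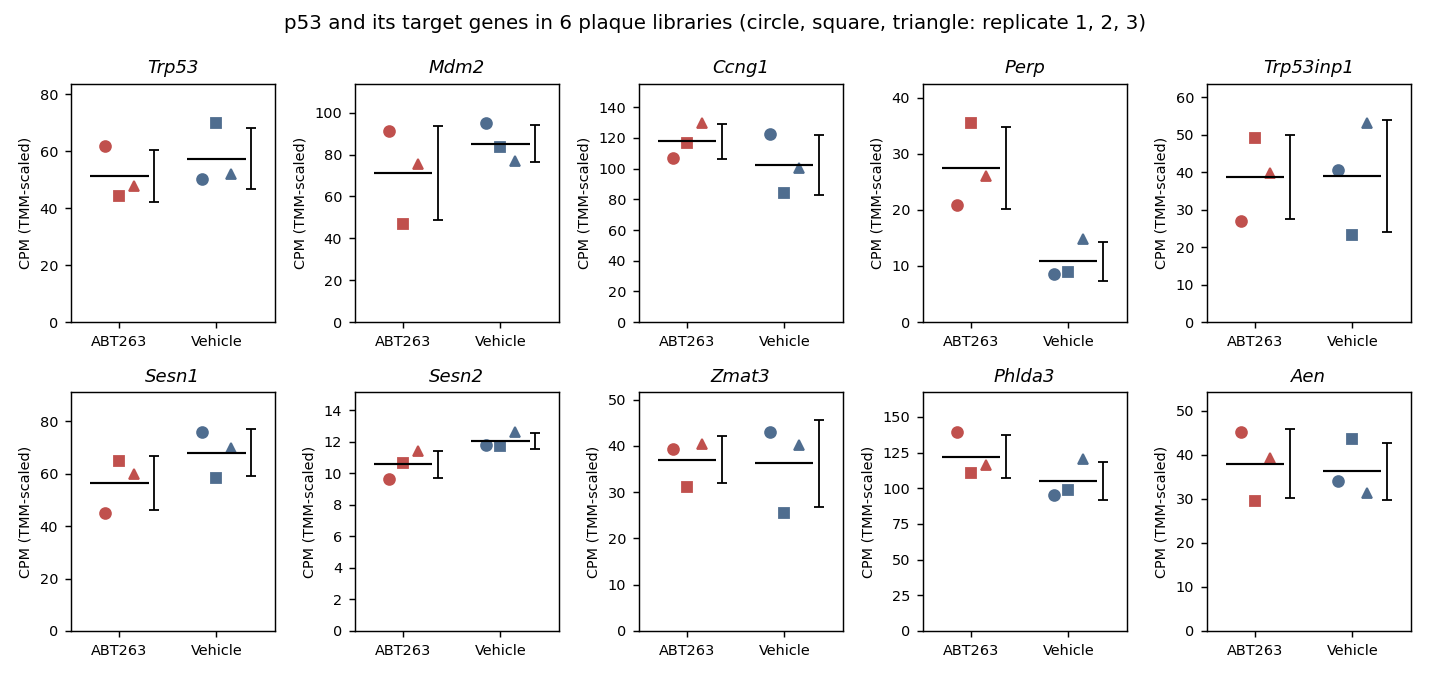
CPM after TMM scaling of the 10 genes, 1 panel per gene, in ABT263 (left) and vehicle (right) libraries; circle, square and triangle are replicates 1, 2 and 3, the line is the group mean and the bar beside it 1 SD (n = 3). Perp is the gene whose points lie far apart by group, at 21.0 to 35.4 CPM with ABT263 and 8.62 to 14.8 CPM with vehicle.

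The targets that act in cell death and survival included the gene that differed most. Perp (chromosome 10, 18845020 to 18857073) stood at 21.0, 35.4 and 26.0 CPM in the ABT263 libraries, against 8.62, 8.97 and 14.8 CPM in the vehicle libraries. All 3 ABT263 libraries were above all 3 vehicle libraries, and the lowest ABT263 level was 1.41 times the highest vehicle level. The means were 27.4 ± 7.34 CPM with ABT263 and 10.8 ± 3.48 CPM with vehicle (SD, n = 3 each). The log2 fold change was 1.34 (SE 0.31, interval 0.61 to 2.08), with an unadjusted p of 0.00373 and an adjusted p of 0.592 by edgeR. By p it ranked 39 of 15222. DESeq2 called Perp (log2 fold change 1.33, adjusted p = 0.0240) and limma-voom did not (adjusted p = 0.834).

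The share of all genes called by DESeq2 was 0.946%, or 0.427% on the higher side, and edgeR called 0% of them. At an unadjusted p below 0.05 edgeR listed 1 of the 10 genes, Perp, against 8.38% of all genes (4.70% on the higher and 3.68% on the lower side). Groups did not overlap for 2 of the 10 genes, against 12.0% of all genes. These were Perp on the higher side, against 5.68% of all genes, and Sesn2 on the lower side, against 6.31%. With 10 genes, such counts are close to the background shares.

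Marker sums of other cell types are given here beside Perp, library by library. Perp is known from epithelia, where it helps to hold cells together. ABT263 replicate 2 held both the highest Perp level and the high mesothelial and adipocyte sums given above. In ABT263 replicates 1 and 3 the 8 mesothelial markers summed to 33.2 and 10.9 CPM, against 12.0 to 35.1 CPM with vehicle. Most of these sums was 1 keratin gene, Krt18, at 30.7 and 8.57 CPM in those ABT263 libraries and 11.2 to 31.9 CPM with vehicle. The 8 epithelial markers summed to at most 3.96 CPM in any library. Without ABT263 replicate 2 the log2 fold change of Perp was 1.12 (edgeR unadjusted p = 0.0127), and without replicate 2 of both groups it was 1.0003 (unadjusted p = 0.0240). Contractile smooth muscle markers summed to 2500, 16420 and 10243 CPM in ABT263 replicates 1 to 3, against 2732 to 3764 CPM with vehicle. Summed fibroblast markers were 679, 2151 and 491 CPM in ABT263 replicates 1 to 3, against 323, 361 and 454 CPM in vehicle replicates 1 to 3. That sum was higher in every ABT263 library, by a narrow margin between replicate 3 of each group. Groups lay apart on the higher side for 1 of the 8 fibroblast markers, against 5.68% of all genes. Cd34 made up most of the sum in ABT263 replicate 1, at 437 CPM. The part of these cell types in the Perp difference was not tested.

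**Figure D2:**
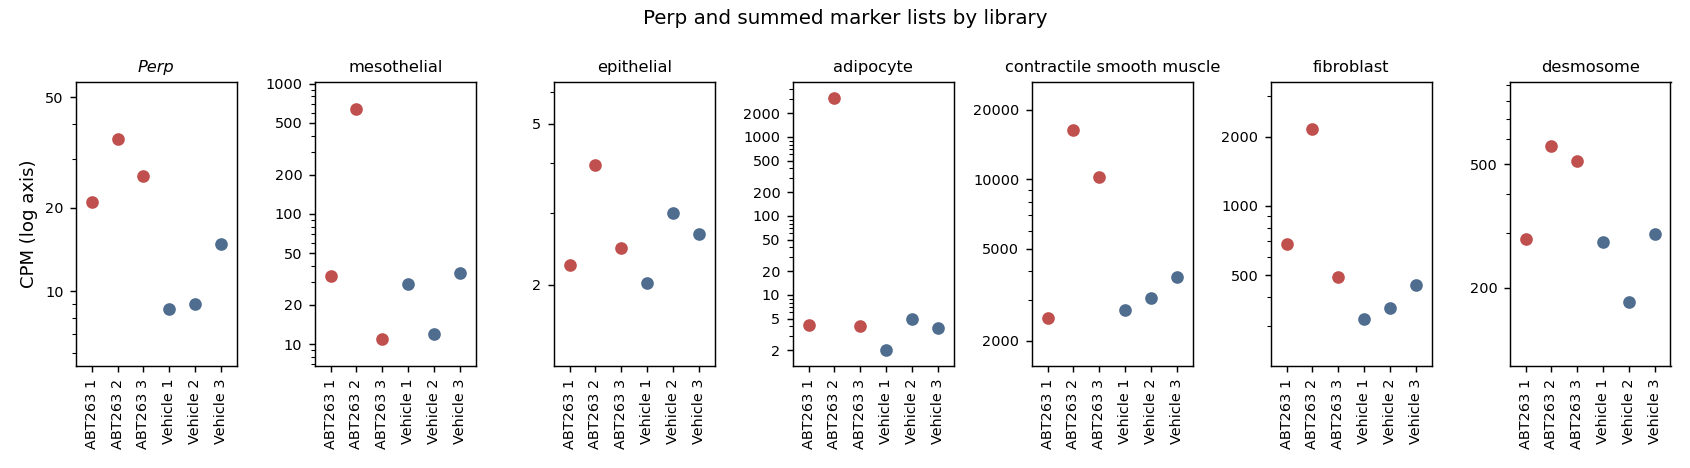
CPM of Perp and summed CPM of 6 gene lists in each library (log axes, a separate scale per panel), ABT263 in red at the left of each panel and vehicle in blue at the right. Perp and the fibroblast sum lie above the vehicle range in all 3 ABT263 libraries, the fibroblast sum narrowly so in ABT263 replicate 3. The mesothelial and adipocyte sums do so in ABT263 replicate 2, at 641 and 3074 CPM.

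Of the 14 desmosome genes listed beside Perp, 9 were tested, 7 on the higher and 2 on the lower side, the median being 0.48 on the log2 scale. The desmosome calls were 0 by edgeR, against 0% of all genes, and 0 by DESeq2, against 0.946%. At an unadjusted p below 0.05 edgeR listed 3 of the 9, against 8.38% of all genes. The median of the 9 was 0.20 without vehicle replicate 2 and 0.075 without replicate 2 of both groups. Dsp, which encodes desmoplakin, the link to intermediate filaments, stood at 15.2, 136 and 144 CPM with ABT263, against 30.3, 18.5 and 32.0 CPM with vehicle. It was lowest of all in ABT263 replicate 1, so its pattern was not that of Perp, and its exons overlap another annotated gene. Its log2 fold change was 1.87 (SE 0.76). Ppl (periplakin) had 2.15 (SE 0.73), or 1.07 without ABT263 replicate 2. Pkp4 (plakophilin 4) had 0.92 (SE 0.39), or 0.45 without replicate 2 of both groups. Pkp3 (plakophilin 3) had -1.65 (SE 0.49) and was the gene of this list whose groups did not overlap, which held for 12.0% of all genes. The desmosomal cadherins Dsg1a, Dsg3 and Dsc1 had 0 counts in all libraries, which allows at most 0.0480 CPM in any library, for counting error only. Other desmosomal cadherins were detected at low levels. Dsg2 stood at 0.36, 3.81 and 0.38 CPM with ABT263, against 0.35, 0 and 0.37 CPM with vehicle. Dsc2, not tested, had 4, 60 and 21 counts with ABT263, against 0, 3 and 0 with vehicle. Dsc3, not tested, had 6 counts in ABT263 replicate 2 and 0 elsewhere.

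The genes whose profile over the 6 libraries lay closest to that of Perp were Lims2, Sobp, Tspan2, Prkd1 and Nipal2, out of 12335 candidates whose log2 CPM averaged 1 or more. Closeness was the root mean square difference of log2 CPM centred on each gene's own mean. Lims2 was nearest, at 0.11, and the other four lay at 0.21 to 0.23. Lims2 had 66.7, 130 and 78.9 CPM with ABT263, against 32.3, 30.01 and 46.5 CPM with vehicle. Exons of Lims2, Sobp, Tspan2 and Nipal2 overlap those of a gene on the opposite strand, and the libraries do not mark strand, so their counts are uncertain. None of the 10 p53 genes had exons shared with another gene in the annotation used. Trp53 was nearest to Ier3ip1, Clk2, Scin, Map2k2 and Tmem60, at 0.036 to 0.042, all of them genes with small differences between libraries, and Ier3ip1 shares exon sequence with a neighbour.

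The other death and survival effectors did not separate the groups. Trp53inp1 (chromosome 4, 11156431 to 11174379), a stress-induced nuclear protein that promotes p53-dependent death and autophagy, stood at 26.9, 49.2 and 39.6 CPM with ABT263, against 40.5, 23.3 and 52.98 CPM with vehicle. Its levels spread as widely within a group as between them, and the log2 fold change was -0.013 (SE 0.35, interval -0.86 to 0.84, edgeR adjusted p = 0.996). Its interval was the widest of the 10 and holds fold changes from 0.55 to 1.78.

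Phlda3 (chromosome 1, 135766119 to 135769136) encodes a pleckstrin-homology protein that keeps the survival kinase AKT from the membrane. It stood at 139, 111 and 116 CPM with ABT263, against 95.5, 98.9 and 120 CPM with vehicle. ABT263 replicate 1 was highest, and vehicle replicate 3 lay inside the ABT263 range. Phlda3 had a log2 fold change of 0.22 (SE 0.19, interval -0.22 to 0.66, edgeR adjusted p = 0.803).

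Aen (chromosome 7, 78895854 to 78911209) encodes a nuclease that cuts DNA and RNA in apoptosis. It had 45.2, 29.6 and 39.2 CPM with ABT263, against 34.0, 43.6 and 31.3 CPM with vehicle. Aen had a log2 fold change of 0.066 (SE 0.22, interval -0.47 to 0.60, edgeR adjusted p = 0.966). The profiles of Aen and Trp53 lay closest of the 45 gene pairs, with a root mean square difference of 0.15 in centred log2 CPM. Both were highest in ABT263 replicate 1 and vehicle replicate 2. The 5 genes nearest to Trp53, given above, lay closer to it than Aen did, at 0.036 to 0.042.

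Zmat3 (chromosome 3, 32334792 to 32366014) encodes a zinc-finger protein that binds RNA. It stood at 39.3, 31.2 and 40.5 CPM with ABT263, against 43.0, 25.4 and 40.3 CPM with vehicle. Replicate 2 was the lowest in each group, and the log2 fold change was 0.031 (SE 0.24, interval -0.55 to 0.61, edgeR adjusted p = 0.988).

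The sestrins are stress proteins that restrain the growth kinase complex mTORC1 and limit oxidative damage, and neither passed the test. Sesn1 (chromosome 10, 41809935 to 41908424) stood at 44.99, 64.9 and 59.8 CPM with ABT263, against 75.9, 58.6 and 69.9 CPM with vehicle. ABT263 replicate 1 was lowest, while replicate 2 of each group fell within the range of the other group. Sesn1 had a log2 fold change of -0.27 (SE 0.20, interval -0.75 to 0.22, edgeR adjusted p = 0.768). Sesn2 (chromosome 4, 132492032 to 132510501), which also senses leucine, stood at 9.66, 10.7 and 11.4 CPM with ABT263, against 11.8, 11.7 and 12.6 CPM with vehicle. Its groups did not overlap, by a narrow margin, and the log2 fold change was -0.19 (SE 0.19, interval -0.64 to 0.26, edgeR adjusted p = 0.843). Sesn2 varied least of the 10 genes, by 0.38 in log2 CPM from its lowest to its highest library, against 1.09 for the median gene.

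**Figure D3:**
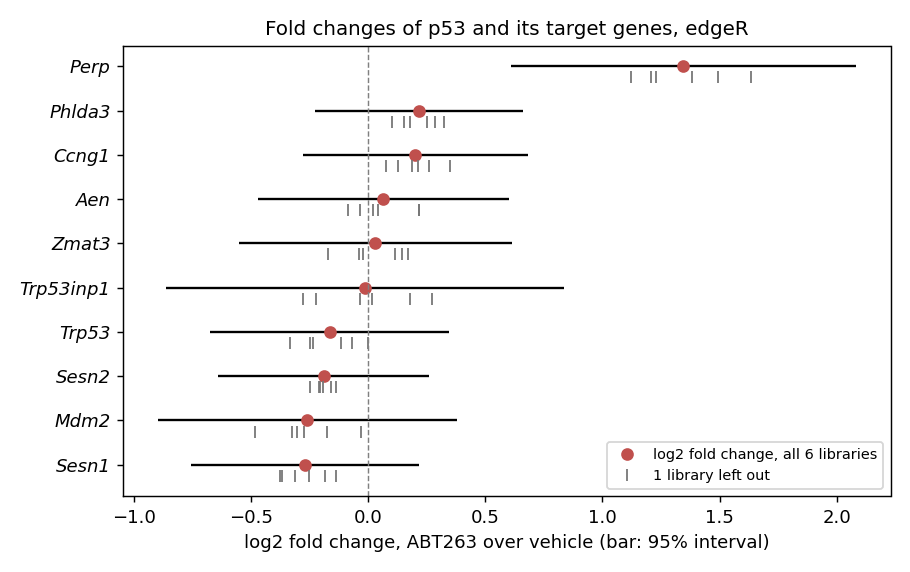
Log2 fold change (ABT263 over vehicle) of the 10 genes by edgeR, with the 95% interval as a bar and the values after leaving out each library in turn as grey ticks. The interval of Perp runs from 0.61 to 2.08, and the other 9 intervals include 0.

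The genes did not move together from library to library. Measured from each gene's own mean, ABT263 replicate 1 was below in Trp53inp1 (by -0.47 in log2 CPM) and Sesn1 (-0.45) and above in Perp (0.32), Phlda3 (0.31) and Aen (0.30). ABT263 replicate 2 was lowest in Mdm2 (-0.70) and highest in Perp (1.08). Vehicle replicate 2 was low in Perp (-0.90), Trp53inp1 (-0.67), Zmat3 (-0.50) and Ccng1 (-0.38) and high in Trp53 (0.38). Between 4 and 7 of the 10 genes were above their own mean in each library. The profiles of Mdm2 and Perp were the farthest apart of the 45 pairs (root mean square difference 1.02), and those of Sesn1 and Sesn2 among the closest (0.16).

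**Figure D4:**
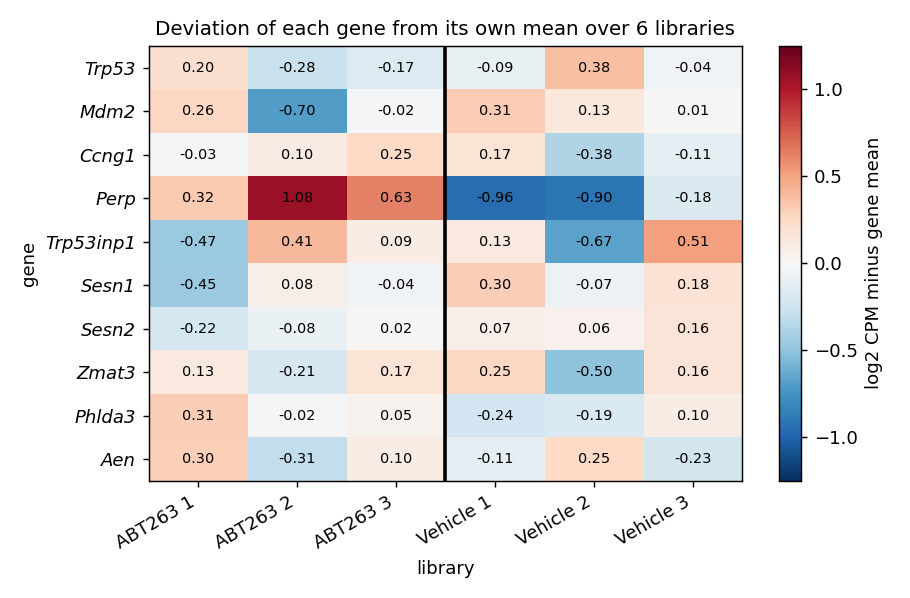
Log2 CPM of each gene minus its mean over the 6 libraries, with ABT263 libraries left of the black line and vehicle libraries right of it. Perp is the row that changes colour at the line, with 0.32, 1.08 and 0.63 in the ABT263 libraries and -0.96, -0.90 and -0.18 in the vehicle libraries.

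Levels between genes were compared as CPM per kilobase of exon, using the union of annotated exons. Phlda3 was highest, at 78.4 ± 9.70 with ABT263 and 67.3 ± 8.66 with vehicle (SD, n = 3 each). Ccng1 came next, at 33.5 ± 3.22 and 29.1 ± 5.51 CPM per kilobase. Neither overlapped any other gene over the 6 libraries. Sesn1, Mdm2 and Trp53 formed a middle group whose ranges overlapped, with Trp53 at 12.7 ± 2.29 with ABT263 and 14.2 ± 2.65 with vehicle. Perp was at 14.1 ± 3.76 CPM per kilobase with ABT263, inside the range of Trp53, and at 5.54 ± 1.78 with vehicle, below it. Over the 6 libraries Perp ran from 4.42 to 18.1, so it overlapped the middle group and also Aen and Trp53inp1. Aen and Trp53inp1 followed, at means of 6.40 and 5.98 over the 6 libraries, with ranges that overlapped. Sesn2 and Zmat3 were lowest, at 3.25 and 3.20. Unions include exons that plaque may not use, which lowers the value of genes with long annotated ends such as Zmat3 (11435 bases).

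Other direct p53 targets were listed apart from the 10, and all 36 were tested. They split evenly, 18 on the higher and 18 on the lower side, the median being -0.013 on the log2 scale. None was called by edgeR or DESeq2, against 0% and 0.946% of all genes. At an unadjusted p below 0.05 edgeR listed 2 of the 36, against 8.38% of all genes. Both were on the lower side, against 3.68% of all genes, and 0 on the higher side, against 4.70%. Groups did not overlap for 5 of the 36 genes, against 12.0% of all genes. The death genes among them did not share a direction. Plk3, a stress-activated kinase, stood at 22.8, 11.6 and 22.1 CPM with ABT263, against 36.6, 41.2 and 26.5 CPM with vehicle (log2 fold change -0.88, SE 0.31, edgeR adjusted p = 0.592), and had -0.49 without replicate 2 of both groups. Pmaip1, which encodes the BH3-only protein NOXA, stood at 11.5, 5.11 and 10.4 CPM with ABT263, against 17.4, 13.6 and 16.8 CPM with vehicle (-0.83, SE 0.33, adjusted p = 0.592 by edgeR), and had -0.54 without ABT263 replicate 2. Tnfrsf10b, a death receptor for TRAIL, stood at 15.3, 12.2 and 21.2 CPM with ABT263, against 11.2, 8.20 and 11.9 CPM with vehicle. Its groups did not overlap (log2 fold change 0.64, SE 0.28, edgeR adjusted p = 0.596), and without ABT263 replicate 3 it had 0.40. For Plk3 and Pmaip1 every ABT263 library was below every vehicle library, and ABT263 replicate 2 was lowest. Plk3 shares some exon sequence with a neighbour on the opposite strand, so its count is uncertain.

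Tap1, a peptide transporter of antigen presentation that interferon also induces, rested on 1 library. It stood at 31.3, 41.1 and 28.6 CPM with ABT263, against 36.02, 263 and 49.3 CPM with vehicle (log2 fold change -1.79, SE 0.76), and without vehicle replicate 2 the log2 fold change was -0.34. Its exons overlap those of a gene on the opposite strand. Cdkn1a, the p21 inhibitor of cyclin-dependent kinases, stood at 159, 65.9 and 117 CPM with ABT263, against 95.7, 182 and 117 CPM with vehicle. The log2 fold change of Cdkn1a was -0.21 (SE 0.38, interval -1.13 to 0.71), and it turned to 0.065 without ABT263 replicate 2 and to 0.096 without vehicle replicate 2. Bax, the apoptosis effector, had -0.47 (SE 0.39), or -0.033 without vehicle replicate 2. Fas, the death receptor, had 0.28 (SE 0.16), and its groups did not overlap, at 48.7, 49.5 and 46.7 CPM with ABT263 against 35.4, 38.0 and 46.1 CPM with vehicle. Exons of Cdkn1a and Bax overlap those of other annotated genes, so their counts are uncertain. Summed macrophage, T cell, B cell and neutrophil markers were lower in the ABT263 libraries, those of macrophages and neutrophils by a narrow margin between the nearest libraries. The part of these cell types in the values of Plk3, Pmaip1 and Tap1 was not tested.

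Genes that act on p53 itself were also listed, 28 in all, of which 27 were tested. Of these, 14 were on the higher and 13 on the lower side, the median being 0.021 on the log2 scale. The number at an unadjusted p below 0.05 by edgeR was 0, against 8.38% of all genes. The number called was 0 by edgeR, against 0% of all genes, and 0 by DESeq2, against 0.946%. Groups did not overlap for 0 of the regulators, against 12.0% of all genes. The smallest p belonged to Daxx, an adaptor that binds Mdm2 (log2 fold change -0.39, SE 0.25), Ppp1r13l, which encodes the p53 inhibitor iASPP (0.38, SE 0.28), the acetylase Kat5 (-0.25, SE 0.20), whose exons overlap a neighbour's, and the damage kinase Chek2 (-0.28, SE 0.22). Without vehicle replicate 2 Daxx had -0.096 and Kat5 -0.051, and without ABT263 replicate 2 Chek2 had -0.12. Ppp1r13l had 0.14 without ABT263 replicate 3. Mdm4, the partner of Mdm2, had -0.13 (SE 0.26), with 20.2, 30.02 and 27.6 CPM with ABT263 against 31.9, 19.99 and 33.0 CPM with vehicle. Atm, the kinase that answers DNA breaks, had 0.044 (SE 0.30). The p53 relative Trp73 was not tested, having at most 21 counts in any library, in ABT263 replicate 2.

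**Figure D5:**
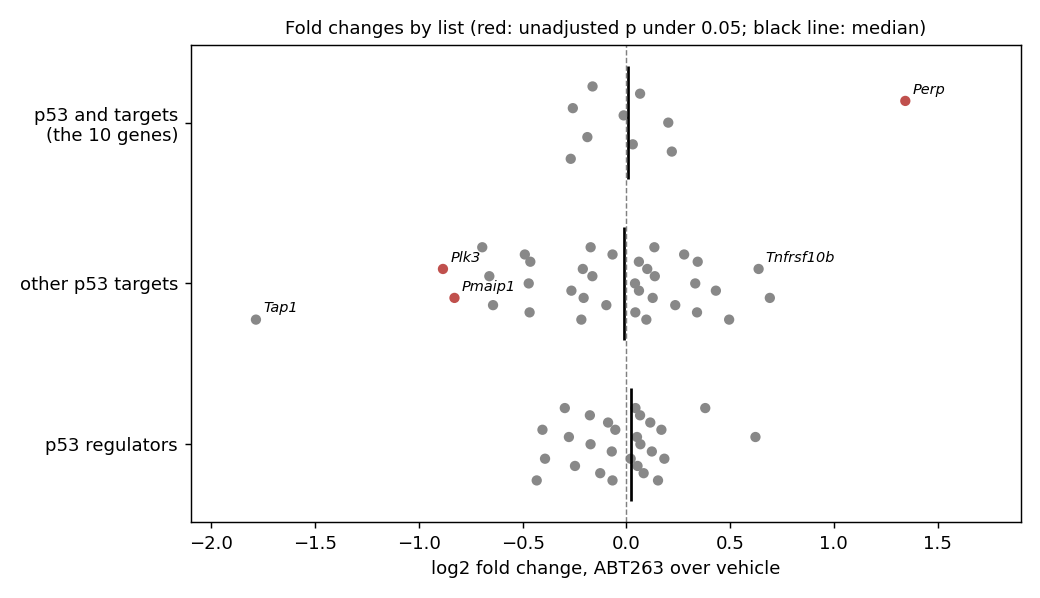
Log2 fold change (ABT263 over vehicle) of the 10 genes, of 36 other p53 targets and of 27 p53 regulators, each point 1 gene, with the median of each list as a black line and an unadjusted p below 0.05 in red. The medians lie at 0.0090, -0.013 and 0.021, and Perp lies to the right of all other points at 1.34.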

How the data were processed

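The deposited file holds raw counts, whole reads for each gene symbol, with 6 columns named by the sample titles. The build mm10 and the tools featureCounts 1.4.6, Subread, TopHat2 2.0.14 and Bowtie2 2.2.6 appear in the submitters' processing notes, without role or order. Annotation, strand setting and multi-mapping rule are not given in the sources used. Per the labels' protocols, libraries were made from 100 to 200 ng of RNA by TruSeq RNA Library Prep v2, which does not mark strand.

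Counts were analysed in R 4.3.3. The defaults of filterByExpr (minimum count 10, minimum total 15) left 15222 of 24062 genes. After TMM scaling, the edgeR 4.0.16 quasi-likelihood F-test was run on a model with the group alone (4 residual degrees of freedom), with Benjamini-Hochberg adjustment over all genes and a threshold of 0.05. The SE was obtained as the size of the log2 fold change over the root of F, and intervals are 95%. DESeq2 1.42.0 and limma-voom (limma 3.58.1), other scalings, no filter, and fits without each library were run beside it. No pair of libraries in a group agreed within counting noise (chi-square per degree of freedom at least 189). At a count of 0, 3 counts are the limit, which covers counting error only.

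Named genes were the 10 members, the 4 of smallest p in each further list, Cdkn1a, Bax, Fas, Mdm4 and Atm, and the 5 genes closest to Perp and to Trp53. Trp73 and the desmosomal cadherins were named besides, for their low counts. The genes and lists were chosen with earlier results of these data known, so no list was tested as a set. Tigar, Cop1 and Adgre1 were found under older symbols. Log2 CPM used a prior count of 2. Positions, exon unions and exon overlaps came from GENCODE M21 (GRCm38, the assembly of mm10). Promoter windows ran from 250 bases before to 50 after each RefSeq start.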

Additional observations from a re-analysis of the deposited data

How the results depend on the processing

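Each of the 10 genes was refitted under 12 other settings, and of these 120 values 106 kept their direction and their side of the threshold, 13 changed sign and 1, Perp by DESeq2 (1.33), passed the threshold. DESeq2, which gave no adjusted p for 206 genes, called 144 genes in all and 1 of the 10, and every other setting called 0 of either. Leaving out each library in turn gave log2 fold changes of 1.12 to 1.63 for Perp, -0.33 to 0.0013 for Trp53, -0.28 to 0.27 for Trp53inp1, -0.17 to 0.17 for Zmat3 and -0.086 to 0.22 for Aen. With replicate 2 of both groups left out, Trp53 was 0.096, Zmat3 -0.061, Cdkn1a 0.37, Bax 0.18 and Atm -0.19. Trp53inp1 was 0.074 with library totals alone and 0.023 by limma-voom. Over the fits without 1 library Cdkn1a ran from -0.54 to 0.096, Mdm4 from -0.32 to 0.016 and Atm from -0.21 to 0.20. The cause of these changes of sign was not tested. The settings for genes outside the 10 were chosen after seeing the data. No paired analysis was possible because the labels give no replicate numbers that groups share. With 3 libraries per group the 95% intervals of the 9 genes other than Perp reached as far as -0.89 and 0.84, which sets what could be seen here.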
